A study of Saccharomyces cerevisiae with 11 samples.

Results

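The chz1 deletion strain of budding yeast was compared with 4 strains that each lacked another histone chaperone gene, all after trichostatin A (TSA). The comparison used 5 of the 11 arrays of the study, 1 per strain: chz1-del-TSA on one side, and asf1-del-TSA, nap1-del-TSA, rtt106-del-TSA and vps75-del-TSA on the other. They were chosen because they share the treatment, which leaves the chz1 array without TSA out of the contrast. Each strain carried a deletion of CHZ1, ASF1, NAP1, RTT106 or VPS75 in BY4742, an alpha strain that also lacks HIS3, LEU2, LYS2 and URA3. Cultures grew in rich glucose medium at 30 °C, received 10 µM TSA at an optical density of 0.5, and were harvested 1 hour later. Total RNA of each culture was hybridised on a 2-colour array against RNA that was read here as wild type without TSA. The study descriptions name that reference, whereas the channel labels of these 5 arrays name the untreated deletion strain. There were no replicates: the fit took its spread from the 4 other strains and assumed that the lone chz1 array varies like them, so p-values measure only the spread between these arrays.

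Chz1 is a nuclear chaperone that binds dimers of the histone variant H2A.Z with H2B and can hand them to the SWR1 complex, which exchanges them into nucleosomes near gene starts. Asf1 and Rtt106 carry H3 and H4, Nap1 binds mainly H2A and H2B, and Vps75 works with the acetyltransferase Rtt109. TSA inhibits the zinc-dependent histone deacetylases, among them Rpd3 and Hda1, and leaves the NAD-dependent Sir2 family, which silences telomeres and the silent mating loci, uninhibited.

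The values are log2 ratios of experimental over reference RNA after normalization within each array, and a difference is the chz1 ratio minus the mean of the 4 other ratios. Each array carried its own deletion. The deleted gene stood between −4.53 and −3.34 in its own strain, CHZ1 (YER030W) at −4.06, and between −0.31 and 0.39 in the 20 combinations with other strains. The neighbours of CHZ1 by systematic name were both measured. SMB1, a core splicing protein gene, had a ratio of −0.19 on the chz1 array and a difference of −0.07, and YPT31, a GTPase gene of the Golgi, had 0.21 and 0.04. The chz1 array was among the more repeatable: its 2 repeat measurements correlated across genes at 0.960, against 0.819 for asf1, 0.831 for nap1, 0.969 for vps75 and 0.972 for rtt106. The asf1 array had the highest experimental floor, a signal of 302 against 53 to 126 on the other 4, so dim genes were read less well there. Across genes, which share each array's normalization and are not independent, the chz1 ratios correlated with those of vps75 at 0.64, of nap1 at 0.51, and of asf1 and rtt106 at 0.38 each.

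No single gene separated chz1 from the other deletions by the test across all genes. Of 5829 genes tested, limma with Benjamini-Hochberg adjustment called 0 higher (0% of those tested) and 0 lower (0%), with a smallest adjusted p of 0.99995. At an unadjusted p under 0.05, 92 genes were higher (1.58%) and 65 lower (1.12%), 157 in all (2.69%). The 20 other settings that were run also called 0 genes, with a smallest adjusted p of 0.0798 for SNT1 from the series matrix. The chz1 ratio lay above all 4 others for 1065 genes (18.3%) and below all 4 for 1154 (19.8%), and 47.5% of the differences were above 0. Past a 2-fold difference there were 5 genes on the higher side (0.0858%) and 15 on the lower (0.257%), and past 1.5-fold 77 (1.32%) and 85 (1.46%). These shares are the background for the counts that follow. All single-gene values below are therefore descriptions of 1 array beside 4, and every named gene had an adjusted p of 0.99995 by limma.

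**Figure D1:**
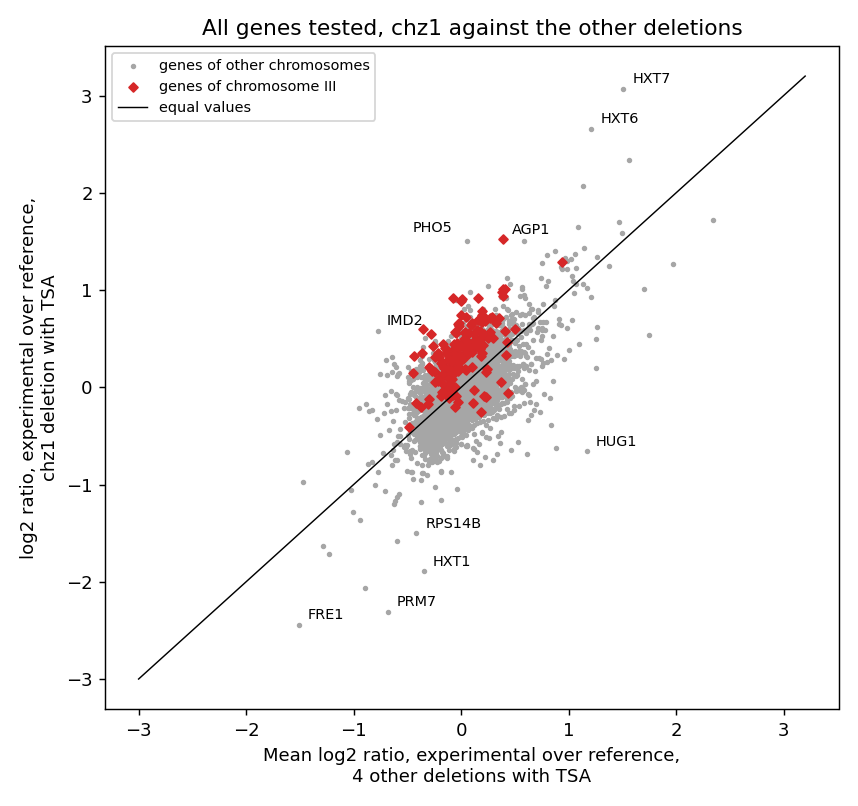
Each point is 1 of the 5829 genes tested, with the mean log2 ratio of the 4 other deletions on the horizontal axis and the log2 ratio of the chz1 deletion on the vertical axis, all with TSA. Red diamonds are the 158 genes of chromosome III, most of which lie above the line of equal values.

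Genes of a whole chromosome stood higher on the chz1 array. Genes of chromosome III had a median log2 ratio of 0.36 on the chz1 array, a level 1.28-fold above the reference. The same genes had medians of 0.00 in vps75, 0.03 in rtt106, −0.01 in nap1 and 0.04 in asf1. The chz1 array stood apart and the 4 others lay near 0. On the chz1 array, the other 15 nuclear chromosomes had medians from −0.04 to 0.02. Of the 158 genes of chromosome III that were tested, 144 had a difference above 0 and 112 (70.9%) lay above all 4 other arrays, and 44 of the 92 genes with an unadjusted p under 0.05 on the higher side were among them. The median difference was 0.35, against −0.01 over all genes tested. Chromosome III was picked out after its values were seen, and with 1 array against 4 an exact permutation test of its median can give no p below 0.2.

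**Figure D2:**
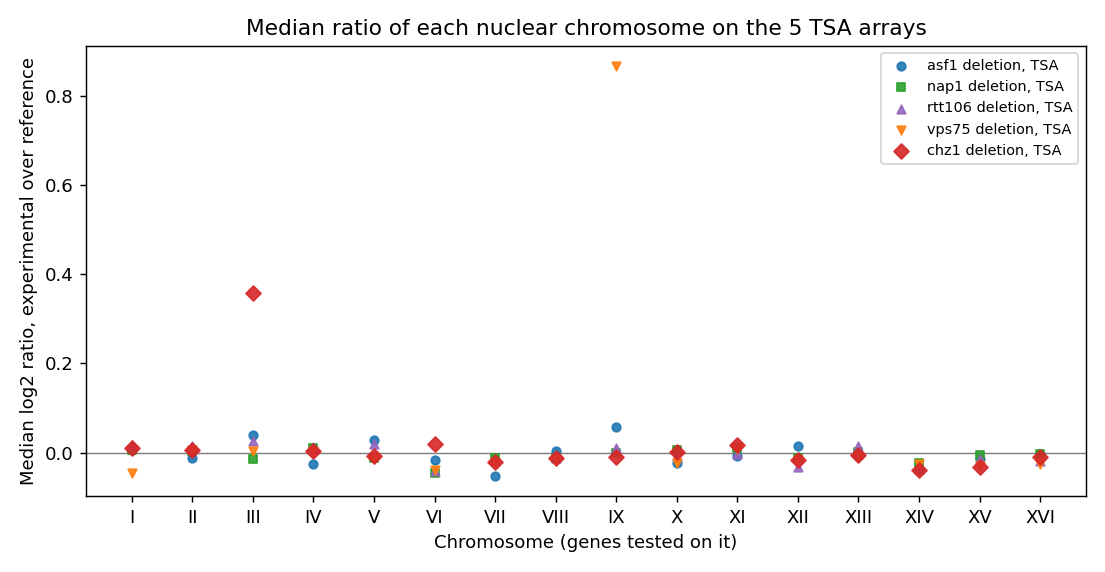
Points are the median log2 ratio of the tested genes of each nuclear chromosome, 1 point per TSA array. The chz1 array stands at 0.36 for chromosome III and the vps75 array at 0.87 for chromosome IX, and other medians lie near 0.

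The shift covered the whole of chromosome III. The left arm (57 genes) had a median chz1 ratio of 0.35 and the right arm (101 genes) 0.39, and in 7 consecutive groups of genes ordered by systematic name the median ran from 0.25 to 0.45. Both repeat measurements gave it, with medians of 0.38 and 0.36. It lay in the experimental channel: the median difference of that channel alone was 0.33, and that of the reference channel alone 0.00. By mean reference signal, the 53 dimmest genes had a median chz1 ratio of 0.19, the 52 genes of middle signal 0.44 and the 53 brightest 0.43. On the 10 other arrays of the study, the chz1 array without TSA and the wild type array with TSA included, the median of chromosome III lay between −0.01 and 0.04. DNA was not measured, so the arrays report RNA levels alone.

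**Figure D3:**
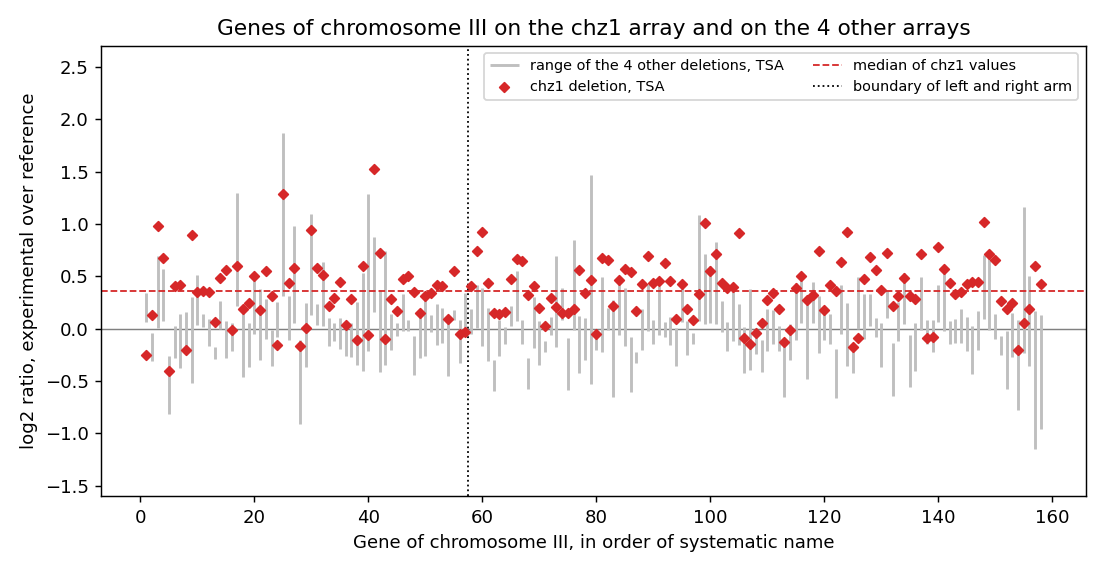
Red diamonds are the log2 ratios of the 158 tested genes of chromosome III on the chz1 array, in order of systematic name, and grey bars span the 4 other TSA arrays. The dashed line is the chz1 median of 0.36, and the diamonds lie above the bars along both arms for 112 of the genes.

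Not every gene of chromosome III took part, and the exceptions named here were chosen after their values were seen. The glutathione exchanger gene GEX1 had a chz1 ratio of −0.26, where the 4 others ran from 0.06 to 0.34. Its near-identical copy GEX2 on chromosome XI had −0.46 against 0.02 to 0.48, so the probes of this pair may not tell the copies apart. KRR1, needed for small-subunit ribosome assembly, had −0.20 with a difference of −0.14. FRM2, an oxidoreductase gene, had −0.06 on the chz1 array, with 0.77 in asf1 and 1.28 in rtt106. The mating-type probes MATALPHA2, HMLALPHA2 and HMRA2 were not exceptions. They read 1.01, 0.98 and 1.02 on the chz1 array and 0.72, 0.69 and 0.71 on the rtt106 array. On vps75 they read 0.65 to 0.67, and on asf1 and nap1 0.01 to 0.20. Their values moved together on every array, and because these loci share sequence the active and silent copies cannot be told apart.

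Chromosome IX went the other way in the contrast, through the vps75 strain. Its genes had a median ratio of 0.87 on the vps75 array with TSA and 0.88 on the vps75 array without it, a 1.82-fold level with TSA, against −0.01 on the chz1 array. The median difference was therefore −0.23, with 25 of 206 genes above 0, and it was −0.03 without the vps75 array. For the remaining 14 nuclear chromosomes the median difference lay between −0.03 and 0.01.

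Of the 12 genes named on the higher side, 9 lay on chromosome III. IMG1, which encodes a protein of the large mitochondrial ribosomal subunit, had 0.91 on the chz1 array, against 0.24 in vps75, 0.03 in asf1, −0.09 in nap1 and −0.15 in rtt106, a difference of 0.90 (SE 0.19, unadjusted p 0.0029). IMG2, from the same subunit, had 0.92 on the chz1 array, against 0.24 in vps75, 0.08 in nap1, −0.27 in rtt106 and −0.36 in asf1. Both were clear of the other 4 strains by more than those strains differed among themselves. SNT1, a subunit of the Set3 histone deacetylase complex, had 0.63, while the 4 others lay between −0.08 and 0.06, a difference of 0.64 (SE 0.14, unadjusted p 0.0036). PGK1, a phosphoglycerate kinase gene of glycolysis, had 0.65 against −0.14 to 0.09; of its difference of 0.68, the experimental channel alone gave 0.30, and the reference channel was lower on the chz1 array by −0.36. AGP1, a broad amino acid permease gene, had the largest difference of the set at 1.13 (SE 0.29), with 1.53 in chz1 and 0.88 in asf1, and 0.16 to 0.28 in the remaining 3 strains.

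The other chromosome III genes of this set were SLM5, the mitochondrial asparaginyl-tRNA synthetase gene (difference 0.56), FUB1, a gene tied to proteasome function (0.53), RHB1, a Rheb-like GTPase gene (0.82), and ATG15, a vacuolar lipase gene (0.72). RHB1 had 0.54 in chz1 and −0.61 to −0.08 in the 4 others. ATG15 had 0.36 in chz1 and −0.66 to −0.20 in the 4 others, with 0.76 in wild type with TSA. Outside chromosome III the rule named 3 genes, all of mitochondrial function. CYC1, the main cytochrome c gene, had 1.06 on the chz1 array against 0.27 to 0.55 elsewhere (difference 0.61, SE 0.17). ATP20, a subunit of the ATP synthase, had 0.72 against −0.11 to 0.22, and MRP35, listed with the mitochondrial ribosomal proteins, had 0.63 against 0.10 to 0.20. In each case all 4 other strains lay below the chz1 value, which the rule required.

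On the lower side, 0 of the 12 genes taken by the same rule lay on chromosome III. HXT1, the low-affinity glucose transporter gene, had the smallest unadjusted p of all genes (0.000214). Its ratio was −1.89 on the chz1 array, against −0.07 in vps75, −0.41 in nap1, −0.44 in rtt106 and −0.46 in asf1, a difference of −1.54 (SE 0.20), or a level 2.92-fold lower. The 4 others spanned far less than the gap to chz1. RPS14B, which encodes a protein of the small ribosomal subunit, had −1.503, with −0.70 in vps75 at the low end of the others, then −0.55 in rtt106, −0.32 in nap1 and −0.10 in asf1 (difference −1.08, SE 0.24). Its paralogue RPS14A lies on chromosome III and had 0.44 on the chz1 array against −0.15 to 0.08, a difference of 0.48. The S14 protein is known to repress RPS14B through its RNA. Whether that bears on the values here was not tested.

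LYS20, homocitrate synthase of lysine synthesis, had −0.86 against −0.33 to 0.06 (difference −0.67). MAE1, the mitochondrial malic enzyme, had a difference of −0.58, OYE2, an NADPH oxidoreductase, −0.51, and NMA1, which makes NAD, −0.53. The transporter-like gene MCH4 had −0.49, GEX2 −0.65 and the nucleotide excision repair gene RAD16 −0.44. BCP1, which escorts a ribosomal protein, and IPI3, which acts in large-subunit maturation, each had −0.46. On every one of these genes the chz1 array was the lowest of the 5, which the rule required.

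**Figure D4:**
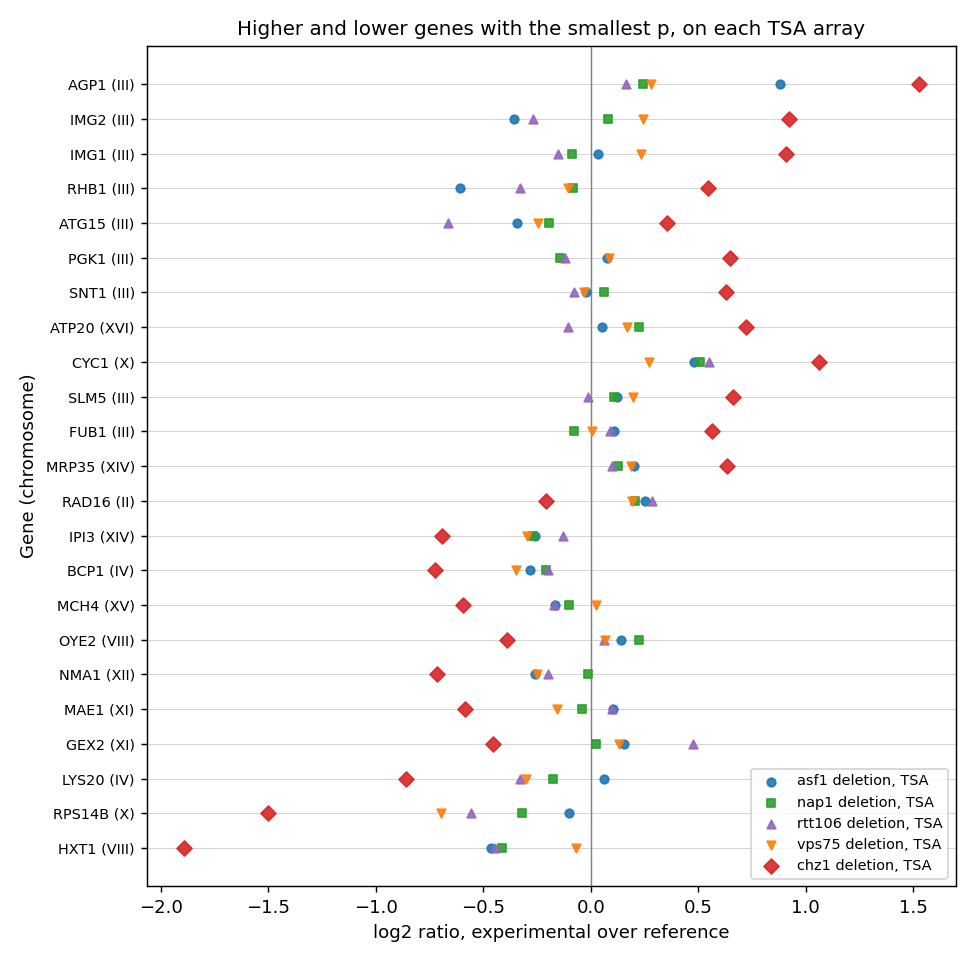
Log2 ratios of the 12 higher and 11 of the 12 lower genes taken by rule, 1 point per TSA array, with the chromosome of each gene in parentheses. The chz1 diamonds lie outside the range of the 4 other strains for every gene plotted, which the rule required.

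Apart from HXT1, the genes with large differences described next had larger SEs. HXT7 and HXT6, high-affinity glucose transporter genes whose near-identical sequences the probes may not tell apart, had 3.07 and 2.66 on the chz1 array. HXT7 had 2.77 in asf1, 1.76 in vps75, 1.37 in rtt106 and 0.15 in nap1, so its difference of 1.56 had an SE of 0.86, and that of HXT6 (1.45) an SE of 0.69. The asf1 strain came close to chz1 and the nap1 strain lay far below. HXT3, another low-affinity transporter gene, had −0.63 in chz1 against −0.34 to 0.40 (difference −0.75). Of 12 hexose transporter genes and glucose sensors tested, 4 had a difference above 0 and 8 below, with a median of −0.13 (0.02 over genes above the floor on all arrays in both channels).

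PHO5, the secreted acid phosphatase gene, had 1.501 in chz1, 1.01 in nap1, 0.05 in rtt106, −0.04 in asf1 and −0.79 in vps75 (difference 1.44, SE 0.59). IMD2, which encodes an enzyme of guanine nucleotide synthesis, had 0.58 in chz1 and from −1.38 to −0.20 in the others (1.36, SE 0.42). At the other end HUG1, a gene induced by DNA damage, had a difference of −1.83 that came from the other arrays: 3.63 in asf1 and 2.07 in rtt106, against −0.66 in chz1, −0.63 in nap1 and −0.40 in vps75. Without the asf1 array it was −1.003. PRM7, a pheromone-regulated gene, had −2.31 in chz1 and from −1.48 to 0.26 in the others, a difference of −1.63 (SE 0.69). HXT7, HXT6, PHO5, IMD2 and AGP1 were the 5 genes that lay 2-fold or more above the others.

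For the substrates and partners of Chz1, only RNA levels were read, from 1 chz1 array. HTZ1, the H2A.Z gene, had 0.20 on the chz1 array, with 0.22 in vps75, 0.01 in nap1, −0.13 in asf1 and −0.23 in rtt106, a difference of 0.23 (SE 0.20) within the range of the others. Among the H2B genes HTB1 had a difference of 0.17 and HTB2 0.27, which were 0.03 and 0.08 without the asf1 array. Of the H2A genes, HTA2 had 0.52 in chz1, above all 4 others (difference 0.53, SE 0.39, and 0.33 without asf1), and HTA1 −0.05. The H3 genes HHT1 and HHT2 had −0.02 and 0.28, the H4 genes HHF1 and HHF2 0.02 and −0.06, the linker histone gene HHO1 0.35, and CSE4, the centromeric H3 variant, 0.02. In all, 8 of 11 histone genes were above 0, 3 lay above all 4 other arrays, and the median difference was 0.17, or 0.08 without the asf1 array, against −0.01 over all genes tested. HTB1, HTA1, HHT1, HHF1, HHF2 and CSE4 took the other sign under at least 1 other setting. No histone gene had an unadjusted p under 0.05.

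The 17 genes of the H2A.Z exchange complexes had a median difference of 0.00, with 9 above 0. SWC5, a SWR1 subunit, had −0.32 in chz1 against −0.22 to 0.15, and BDF1, which binds acetylated histones, had 0.19 against −0.58 to 0.06. The other 15 histone chaperone genes had a median of −0.04 and 13 histone acetyltransferase genes 0.04 (−0.07 with the series matrix). Among 18 histone deacetylase genes the median was 0.03 (−0.02 without asf1, −0.03 with the series matrix) and 11 were above 0. Here SNT1 and HOS3, a deacetylase gene, stood out, HOS3 with 0.66 in chz1 against 0.09 to 0.29 (difference 0.46, SE 0.15). RPD3 had a difference of 0.28 and HST3, of the Sir2 family, 0.22.

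Silencing factors had a median difference of 0.06, which was −0.06 with median centring and below 0 also with the plain ratio, the deposited log ratio and the series matrix, with 11 of 15 above 0 and 4 above all 4 other arrays. SAS4, of the SAS acetyltransferase, had a difference of 0.30 (SE 0.17) and RAP1, which binds telomeres and silencers, 0.25 (SE 0.22). Subtelomeric genes, taken as the 10 outermost systematic names of each chromosome arm, numbered 261, with a median of 0.05 that took the other sign under the same 4 settings (−0.06 with median centring). The 16 of these on chromosome III had a median difference of 0.45, close to that of the rest of that chromosome (142 genes, 0.35). The 245 on other chromosomes had a median of 0.03, with 130 above 0, 52 (21.2%) above all 4 other arrays and 34 (13.9%) below all 4. At an unadjusted p under 0.05, 15 of the 245 were higher (6.12%) and 3 lower (1.22%), against 48 (0.846%) and 64 (1.13%) of all 5671 genes outside chromosome III, and 20 were at least 1.5-fold higher and 5 lower. Over those 5671 genes, 953 (16.8%) lay above all 4 other arrays. Examples from these arms were IMD2 and COX14, a gene for the assembly of cytochrome oxidase, which had 0.66 in chz1 and −0.28 to 0.25 in the others.

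Most genes of 3 mitochondrial lists had a difference above 0, although no member was called. All 67 mitochondrial ribosomal protein genes tested had a difference above 0, and 57 (85.1%) lay above all 4 other arrays, with a median difference of 0.34. Only 1 of the 67, MRPL32, lies on chromosome III, and the list, drawn from gene names, does not hold IMG1 and IMG2. Their median ratio was 0.39 in chz1, 0.28 in vps75, 0.10 in nap1, −0.02 in rtt106 and −0.03 in asf1, so vps75 stood nearest. MRP10 had a difference of 0.52, MRPL27 of 0.42 and MRPL23 of 0.64. At an unadjusted p under 0.05 there were 6 higher and 0 lower.

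Genes encoded in the mitochondrial genome had a median ratio of 0.64 in chz1 and 0.21 to 0.30 in the 4 others. In wild type with TSA it was 0.41. Of 21 tested, 20 had a difference above 0 and 12 lay above all 4, with a median difference of 0.42, which depended on the offset (0.68 at offset 0 and 0.22 at offset 200). COX3, a subunit of cytochrome oxidase, had 0.51 in chz1 against −0.09 to 0.25, and its difference of 0.46 ran from 0.20 to 0.78 over the settings. The intron-encoded genes BI3, AI2 and SCEI had differences of 0.85, 0.61 and 0.78, and BI3 ran from 0.38 to 1.17 over the settings. Nuclear genes of the respiratory chain and ATP synthase followed with a median difference of 0.21, 36 of 39 above 0 and 17 above all 4, although the asf1 array had a like median ratio (0.58) to chz1 (0.55). QCR7, of the cytochrome bc1 complex, had a difference of 0.36 and ATP18, of the ATP synthase, 0.42. The citrate and glyoxylate cycle genes had a median of 0.01.

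Ribosome biogenesis genes stood lower as a group. Their median ratio was −0.45 in chz1, −0.30 in asf1, −0.27 in vps75, −0.17 in rtt106 and −0.13 in nap1, so all 5 strains were below the reference and chz1 the furthest. Of 111 genes, 107 had a difference below 0 and 67 (60.4%) lay below all 4 other arrays, with a median difference of −0.21, and 11 had an unadjusted p under 0.05. DHR2, a helicase gene, had −0.90 in chz1 against −0.49 to −0.15 (difference −0.59, SE 0.20). NOP7, of the large-subunit assembly complex, had a difference of −0.59, and RRB1, the chaperone of ribosomal protein L3, −0.41. RNA polymerase I and III genes had a median of −0.15, with 19 of 22 below 0, and RET1 and RPC34 of polymerase III had −0.32 and −0.34. Cytosolic ribosomal protein genes had a median of −0.04 over 137 genes, with 85 below 0, but 0.06 with median centring, and above 0 also with the plain ratio, the deposited log ratio and the series matrix, and RPL4B had −0.41.

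**Figure D5:**
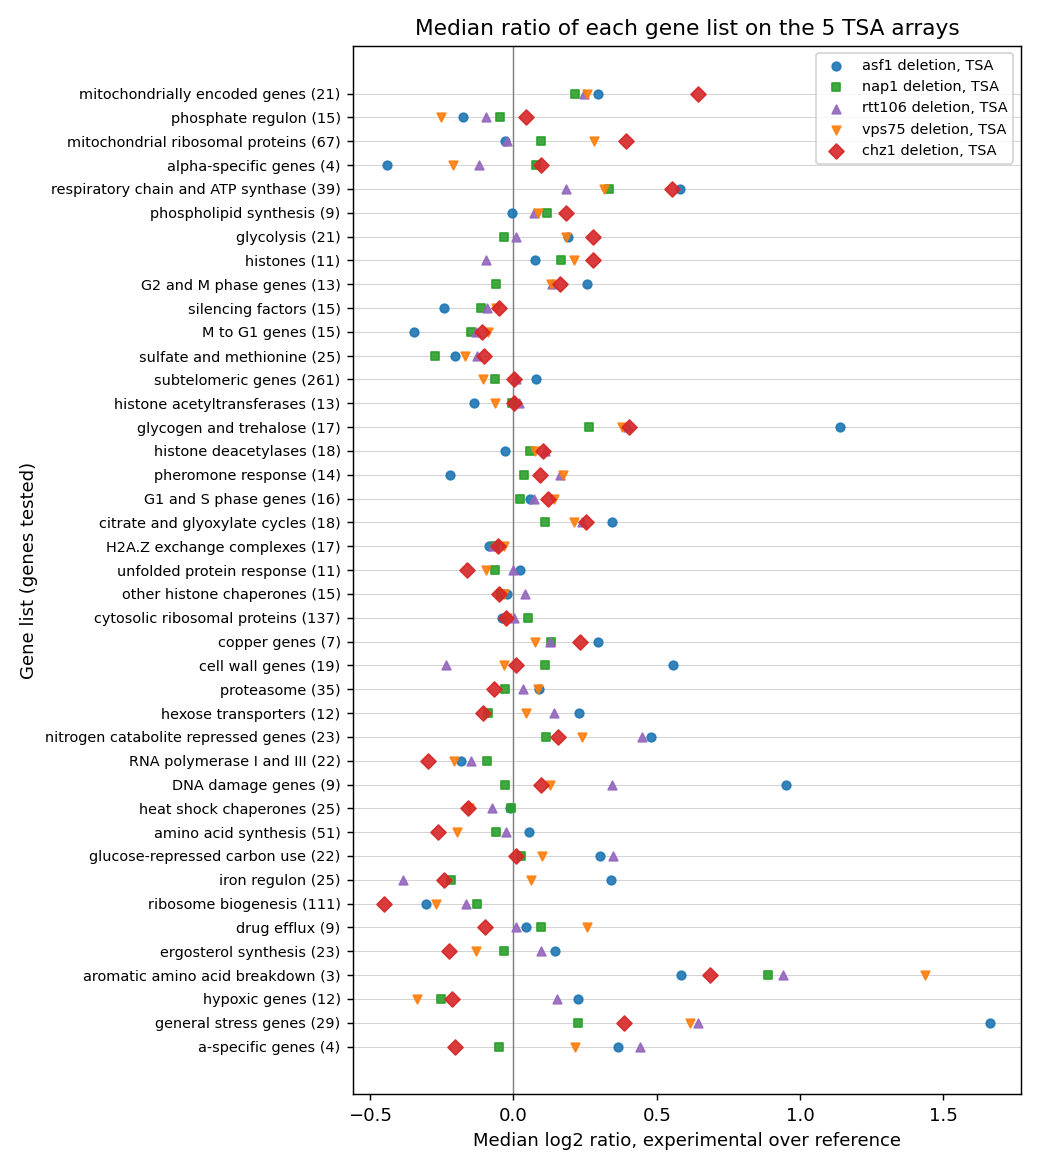
Points are the median log2 ratio of each gene list on each TSA array, with the number of genes tested in parentheses and the lists ordered by their median difference. Within its list, the chz1 diamond is the rightmost point for mitochondrially encoded genes and mitochondrial ribosomal proteins, among others. It is the leftmost point for ribosome biogenesis, among others.

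The phosphate regulon had a median difference of 0.38, with 13 of 15 genes above 0 and 9 above all 4 other arrays. Its median ratio was near the reference in chz1 at 0.04, and 0.09 in wild type with TSA. In the 4 others it was −0.05 in nap1, −0.09 in rtt106, −0.18 in asf1 and −0.25 in vps75. Beside PHO5, GIT1, a glycerophosphoinositol transporter gene on chromosome III, had 0.66 in chz1 against −0.10 to 0.14 (difference 0.67, SE 0.16). VTC1, of the polyphosphate polymerase, had a difference of 0.38 and SPL2, a regulator of phosphate uptake, 0.51. With the wild type TSA array added to the 4 others the median was 0.23. Glycolysis genes had a median of 0.18, with 15 of 21 above 0. By p, PGK1 was followed by the enolase gene ENO2 (0.33) and the pyruvate kinase gene CDC19 (0.28), each above all 4 other arrays, while other members had differences of up to 0.94.

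Sterol genes were lower on the chz1 array. Of 23 ergosterol synthesis genes, 21 had a difference below 0 and 12 (52.2%) lay below all 4 others, with a median of −0.23. ERG4 had −0.16 in chz1 against 0.11 to 0.48, ERG25 had a difference of −0.46, ERG3 of −0.52 and IDI1 of −0.31. The proteasome genes had a median of −0.13, with 29 of 35 below 0 and 17 below all 4. Genes listed as hypoxic had a median difference of −0.28, with 9 of 12 below 0. Their median ratio was −0.34 in vps75, −0.25 in nap1, −0.21 in chz1, 0.15 in rtt106 and 0.23 in asf1. The chz1 array thus lay inside the range of the others. OLE1, the fatty acid desaturase gene, had a difference of −0.36, TIR1, a cell wall mannoprotein gene, −0.97, ANB1, of a translation factor, −0.98, and AAC3, a mitochondrial nucleotide carrier, −0.80, while ratios of the last 3 in rtt106 lay above 0. The median of this list was −0.13 without the asf1 array.

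The iron regulon had a median difference of −0.21, with 23 of 25 genes below 0. Only 6 (24%) lay below all 4 other arrays, near the 19.8% of all genes tested. The median ratio of the list was −0.38 in rtt106, −0.24 in chz1, −0.22 in nap1, 0.06 in vps75 and 0.34 in asf1, so chz1 lay inside the range. FRE1, a metalloreductase gene of the cell surface, had −2.44 in chz1, −2.20 in vps75, −1.75 in rtt106, −1.39 in nap1 and −0.69 in asf1, so all 5 strains were low and chz1 the lowest (difference −0.93, SE 0.52). FRE3, FIT1 and COT1 had differences of −0.35, −0.59 and −0.44. Without the asf1 array the median of the iron list was −0.11. The 7 copper genes had a median of −0.09 (0.01 with median centring), with differences from −0.34 to 0.10 and no member outside the range of the other 4.

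Amino acid synthesis genes had a median difference of −0.18, with 40 of 51 below 0 and 21 (41.2%) below all 4 others. Their median ratio was −0.26 in chz1, −0.20 in vps75, −0.06 in nap1, −0.03 in rtt106 and 0.06 in asf1. On chromosome IX lay 5 of them and on chromosome III 2. The median difference was −0.14 without these chromosomes and −0.11 in the experimental channel alone. Beside LYS20, TRP2 of tryptophan synthesis had −0.58, whereas HIS4, on chromosome III, had 0.51. Nitrogen catabolite repressed genes had a median of −0.13 over 23 genes, which ran from −0.24 without the nap1 array to −0.04 without vps75 and was −0.06 without asf1 and −0.07 without rtt106. Chromosome IX held 5 of the 23 and chromosome III held 1, and without these chromosomes the median was −0.04. AGP1 led the list. UGA4, a permease gene, DAL4, an allantoin uptake gene on chromosome IX, and the arginase gene CAR1 had −0.61, −0.73 and −0.56. Of the 3 genes of aromatic amino acid breakdown, which had a median difference of −0.26, ARO9 and ARO10 had ratios from 0.59 to 2.01 over the 5 strains, and their activator gene ARO80 had −0.21 in chz1 and −0.12 to 0.32 in the others.

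For general stress genes the contrast came mainly from one comparison strain. Their median ratio was 1.66 in asf1, 0.65 in rtt106, 0.62 in vps75, 0.39 in chz1 and 0.23 in nap1, so chz1 lay inside the range. The median difference was −0.40, with 23 of 29 below 0, and −0.06 without the asf1 array. ALD2, an aldehyde dehydrogenase gene, had −0.35, the phosphatase gene SDP1 on chromosome IX −0.40, and GND2, of the pentose phosphate pathway, −0.84. MSN4, the stress activator gene, was above all 4 at 0.31. DNA damage genes had a median of −0.16, which became 0.08 without asf1, −0.26 without nap1 and −0.32 without vps75. In that list RNR3, of ribonucleotide reductase and on chromosome IX, had −0.29 in chz1 and 1.64 in asf1. Heat shock chaperone genes had a median difference of −0.16, which did not rest on asf1 (−0.16 without it), and the co-chaperone gene STI1 had −0.34. The median ratio of these chaperone genes was −0.16 in chz1 and almost as low in vps75 (−0.15), with −0.07 in rtt106 and −0.01 in asf1 and nap1.

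For the remaining lists, medians were −0.21 for drug efflux (9 genes, 0.00 without vps75), −0.19 for glucose-repressed carbon use (22 genes, −0.11 without rtt106), −0.11 for cell wall genes (19 genes, 0.08 without asf1 and −0.20 without rtt106) and −0.03 for the unfolded protein response (11). They were 0.02 for G1 and S phase genes (16) and for the pheromone response (14), 0.04 for glycogen and trehalose (17), 0.05 for sulfate and methionine (25) and 0.06 for M to G1 genes (15). Most of these 5 rested on single arrays: without asf1 they were −0.0029 for G1 and S phase, −0.07 for the pheromone response, 0.22 for glycogen and trehalose and 0.0018 for M to G1, and without nap1 they were −0.07 for glycogen and trehalose and −0.0017 for sulfate and methionine. G2 and M phase genes (13) stood at 0.15 and phospholipid synthesis (9) at 0.18. In all, 15 of the 41 lists had a median within 0.1 of 0.

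Cell identity was read from mating genes. Alpha-specific genes were bright on the chz1 array, with a summed experimental signal of 39235 against 29890 to 37101 on the others, and all 4 had a difference above 0: STE3 0.26, SAG1 0.48, MF(ALPHA)1 0.24 and MF(ALPHA)2 0.36. Without the vps75 array, where it had −1.19, MF(ALPHA)2 was 0.09, and without asf1 SAG1 was 0.25. The 7 a-specific genes summed to 615.5 in chz1 against 954.5 to 2582, but on each array 3 to 5 of them were not above the floor, which was also lowest on chz1, so the order of these sums is not read. Of the 4 a-specific genes tested, all had a difference below 0, with −0.33 for STE2, −0.55 for STE6, −0.71 for MFA1 and −0.23 for BAR1. Without asf1 MFA1 was −0.43, and without vps75 BAR1, on chromosome IX, was −0.11. The labelled alpha type thus matched its bright alpha markers on each array.

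Without TSA the same strains gave a different contrast. On those arrays the median ratio of ribosome biogenesis genes was 0.53 in chz1 and −0.27 to −0.05 in the 4 others. That of respiratory chain and ATP synthase genes was −0.60 in chz1 and 0.11 to 0.51 in the 4 others. There limma called 369 genes higher (6.33%) and 455 lower (7.81%) on the same 5829 genes with Benjamini-Hochberg adjustment, 824 in all. That number was 348 without the asf1 strain, 367 without vps75 and 502 without rtt106. Chromosome III had a median difference of −0.07 without TSA, against 0.35 with it. The median of ribosome biogenesis was 0.68 without and −0.21 with TSA, of the respiratory chain −0.89 and 0.21, and of mitochondrially encoded genes −0.83 and 0.42. Mitochondrial ribosomal proteins had 0.21 and 0.34 and ergosterol genes 0.02 and −0.23. Both contrasts use the same strains. The chz1 array without TSA is titled chz1-del-glucose, with the treatment given as glucose, whereas the 4 others are called untreated, and its channel label names the deletion strain as reference where theirs name wild type.

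Few genes crossed the detection floor. In the experimental channel 24 genes were above it on the chz1 array alone, where the floor was also the lowest of the 5 arrays, and 0 were below it in chz1 alone. Bounds above 1-fold were found for 3 of these, all without a standard name: YKL115C at least 1.51-fold higher, YKL106C-A at least 1.38-fold and YFR056C at least 1.01-fold.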

How the data were processed

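Total RNA of 11 cultures was measured on 2-colour Agilent arrays, and 5 arrays entered the comparison. The authors deposited, per the file headers, 2 repeat readings per probe, each with an intensity for either channel, and a log10 ratio, which ran as reference over experimental RNA here. The series matrix holds log2 values deposited by the authors, and its columns of the 2 vps75 samples held each other's file. Both vps75 arrays lack VPS75, so which had TSA could not be settled from that gene; the sample files were followed. Background correction and scaling before deposit are not given in the sources used here.

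After an offset of 50 was added to each intensity, the 2 repeats were loess-normalized separately on the log2 scale and then averaged, with limma 3.58.1 in R 4.3.3. This centring removes any shift common to most genes of an array. The floor was 2 times the median of the single readings of URA3, LEU2, HIS3 and LYS2, both repeats pooled. Of 6256 genes, 5829 were tested after the 5 deleted genes were removed, the criterion being a signal over that floor in one channel or the other for 3 or more of the 5 arrays; 5050 were above it in both channels on all 5. The fit (lmFit, eBayes, two-sided, 3 residual degrees of freedom before moderation) set 1 array against 4, with Benjamini-Hochberg adjustment at 0.05. The number of arrays limits the precision. Median signals per channel lay between 676 and 825.

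The members and the 41 gene lists were chosen with earlier results of these data known. Named genes were, per direction, the 12 of smallest p among genes with a standard name, above the floor throughout and outside the range of the other 4 arrays; up to 4 members of smallest p per described list; every histone, mating and aromatic gene; the deleted genes and the neighbours of CHZ1; and genes above the floor in chz1 alone. Genes with the largest differences and exceptions on chromosome III were named after their values were seen. Copper genes are given as a range, and 1 of the lower genes is not reported here. Symbols came from the RefSeq table of assembly R64, which matched 5756 genes. Chromosome and order were read from systematic names. The alternatives changed the offset, normalization, source of the ratio, channel, filter, variance model, repeat measurement and comparison arrays.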

Additional observations from a re-analysis of the deposited data

Results flagged for a closer look

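Among the 4 comparison arrays, a value was marked where it lay far from the other 3 relative to their whole range, which chance does in about 1 in 20 groups. The groups examined were the medians of chromosomes III and IX, the 41 list medians and 111 named genes. At that rate several marks can arise by chance among so many groups, so the marks below single out no array. The vps75 array was marked for the median of chromosome IX (0.87), for HXT1 (−0.069, the highest of the 4) and for ARO9 (1.44). The asf1 array was marked for the median of glycogen and trehalose genes (1.14), for AGP1 (0.88), for the H2B gene HTB1 (−0.37), for CSE4 (0.39), for BDF1 (−0.58) and for OLE1 (−0.87). These values enter the mean that chz1 is set against.

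The contrast of chz1 with the other deletions differed between cells with and without TSA for 1766 genes by limma on the change within each strain (Benjamini-Hochberg at 0.05), 944 upwards (16.2%) and 822 downwards (14.1%). Of the 24 genes taken by smallest p as higher or lower with TSA, 18 were among them. They were taken for an extreme contrast with TSA, which is one term of this change, so their number is a description. On the log2 scale the contrast was larger with TSA by 3.12 for AGP1, 2.83 for ATG15, 1.30 for ATP20, 1.08 for PGK1, 0.99 for SLM5, 0.85 for SNT1, 0.77 for CYC1, 0.76 for IMG2, 0.69 for RHB1 and 0.63 for FUB1. It changed with TSA by −1.92 for HXT1, −1.34 for IPI3, −0.96 for RPS14B, −0.86 for NMA1, −0.82 for BCP1, −0.72 for LYS20, −0.71 for OYE2 and −0.54 for MAE1. The chz1 array without TSA, which lay outside the range of the 4 others for lists such as ribosome biogenesis, enters each of these values.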

How the results depend on the processing

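Under all 20 alternatives 0 genes were called in either direction, the removal of each comparison array in turn included (0 to 0). Unadjusted counts moved more: 44 higher and 40 lower without the nap1 array, 126 and 107 without asf1, and 296 and 237 with the series matrix. The median difference of chromosome III was 0.39 at offset 0, 0.28 at offset 200 and 0.31 with the series matrix, and from 0.35 to 0.36 without each comparison array. With 1 strain left out, the contrast without TSA called from 348 to 797 genes and the change with TSA from 1139 to 2155, and the latter was 755 with the series matrix. Of 111 genes tested by name, 102 kept their sign under every alternative and 9 did not. With median centring HHF2 was 0.027, HTA1 0.065, CSE4 −0.011, HHT1 0.10 and SMB1 0.0037. With the plain ratio HHF2 was 0.0076, HTA1 0.046, CSE4 −0.031 and HHT1 0.082. With the deposited log ratio these genes had 0.058, 0.049, −0.042 and 0.082, and with the series matrix 0.022, 0.016, −0.15 and 0.018, where SMB1 had 0.026. Scaling between arrays gave HTA1 0.0064 and HHT1 0.023. The experimental channel alone gave HTB1 −0.11, HTA1 0.0024, HHF1 −0.12, HHT1 0.081 and YPT31 −0.12. The first repeat measurement gave HHF1 −0.0094, CSE4 −0.052 and HHT1 0.00017, and the second HHF2 0.012 and YPT31 −0.021. With wild type added HTA1 was 0.0025, and with the other vps75 file HHF1 was −0.031 and CSE4 −0.0062. Without each comparison array in turn HTA1 ran from −0.16 to 0.076, HHF1 from −0.047 to 0.065, CSE4 from −0.035 to 0.13, HHT1 from −0.083 to 0.11, SMB1 from −0.15 to 0.0035, YPT31 from −0.011 to 0.10 and ARO10 from −0.38 to 0.092. Of the 41 list medians, 24 kept their sign throughout and 17 did not: cell wall, citrate cycle, copper, cytosolic ribosomal proteins, DNA damage, drug efflux, G1 and S phase, glycogen and trehalose, H2A.Z exchange, hexose transporters, histone acetyltransferases and deacetylases, pheromone response, silencing, subtelomeric, sulfate and methionine, and unfolded protein response. The cause of these shifts was not tested. The use of the other vps75 file and the removal of chromosomes III and IX were chosen after seeing the data. No paired analysis was possible because the contrast with TSA has 1 array per strain and the labels carry no replicate numbers; only the change with TSA was taken within each strain.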
